A study of Mus musculus with 2 samples.

Results

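The genes described here are 10 markers of the epiblast and of neural progenitors: Sox11, Nes, Pax6, Six3, Pou3f1, Sox3, Zic2, Otx2, Fgf5 and Sox1. They were given as a list of names, chosen with earlier results of these data known. All of their probe sets in the platform annotation were taken, 27 of the 45101 on the array and 10 of the 18193 genes that have a probe set of their own. RNA of mouse embryonic stem (ES) cells had been hybridised to Affymetrix MOE 430 2.0 mouse arrays, with 1 array for a control culture and 1 for a culture titled as a Dnmt1 knockout (KO). Dnmt1 is the enzyme that copies DNA methylation onto the new strand after replication. The titles give no other allele, treatment or time for either culture, the source name of both samples reads as a control, and the cell line, clone, medium and use of feeder cells are not given in the labels. The submitters state that the arrays served as a KO control for other work on ES cell differentiation.

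When ES cells leave the naive state they pass through a stage like the post-implantation epiblast, in which Fgf5, Otx2, Pou3f1, Zic2 and Sox3 are switched on, before cells that take the neural path express Sox1, Pax6, Six3, Nes and Sox11. Undifferentiated cultures usually hold some cells on that path, so these genes are often detected at a low level in bulk ES cell RNA. In such RNA, fewer cells of a kind and less transcript per cell cannot be told apart.

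Dnmt1 methylates the dinucleotide CG, so the promoters of the genes are shown with their CG marked. RefSeq promoter windows on GRCm38.p6, from 250 bases before to 50 bases after each start, were found for 7 of the 10 genes (Sox11, Nes, Pax6, Six3, Otx2, Fgf5 and Sox1). Shown are those of the pair with the lowest ratio between the arrays, Six3 and Sox11, and of the pair with the highest ratio among the genes in the table, Nes and Otx2, each at its most upstream start, with every CG in capitals and the rest in lower case. The windows lie at chr17:85620584-85620883 on the plus strand for Six3, chr12:27342669-27342968 on the minus strand for Sox11, chr3:87970843-87971142 on the plus strand for Nes and chr14:48667595-48667894 on the minus strand for Otx2.
Six3: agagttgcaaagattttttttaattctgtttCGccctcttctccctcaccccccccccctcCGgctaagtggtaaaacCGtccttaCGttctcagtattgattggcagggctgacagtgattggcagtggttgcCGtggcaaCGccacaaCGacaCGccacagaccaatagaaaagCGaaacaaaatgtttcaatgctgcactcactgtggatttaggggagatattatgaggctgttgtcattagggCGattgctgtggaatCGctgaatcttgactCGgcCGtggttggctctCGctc
Sox11: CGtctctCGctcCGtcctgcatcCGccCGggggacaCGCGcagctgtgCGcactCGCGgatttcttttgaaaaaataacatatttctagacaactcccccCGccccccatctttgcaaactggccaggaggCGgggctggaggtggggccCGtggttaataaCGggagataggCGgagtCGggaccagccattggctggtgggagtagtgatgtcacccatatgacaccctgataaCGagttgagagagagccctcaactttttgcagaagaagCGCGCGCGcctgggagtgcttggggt
Nes: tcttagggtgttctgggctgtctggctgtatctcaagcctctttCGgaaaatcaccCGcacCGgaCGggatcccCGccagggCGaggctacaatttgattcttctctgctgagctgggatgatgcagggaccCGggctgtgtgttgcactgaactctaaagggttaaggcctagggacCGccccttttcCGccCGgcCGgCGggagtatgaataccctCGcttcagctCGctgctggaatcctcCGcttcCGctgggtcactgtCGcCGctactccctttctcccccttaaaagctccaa
Otx2: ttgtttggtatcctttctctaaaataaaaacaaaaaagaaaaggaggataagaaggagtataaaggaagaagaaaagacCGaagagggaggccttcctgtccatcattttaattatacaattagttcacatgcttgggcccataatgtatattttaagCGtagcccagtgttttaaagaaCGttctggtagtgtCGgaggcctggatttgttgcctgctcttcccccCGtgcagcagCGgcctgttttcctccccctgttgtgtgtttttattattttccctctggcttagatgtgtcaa

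The Sox11 window held 21 CG, that of Nes 18, that of Six3 14 and that of Otx2 6. Among the other genes of the list, the windows of Pax6, Fgf5 and Sox1 held 18, 29 and 37. These are counts at the most upstream start. Windows at further starts of Otx2 held 8, 16 and 11 CG, and that at a further start of Pax6 held 16. The median was 7 over the 27025 genes of the table, but 21 over the 8939 genes with a window that were above both floors. Of the 27025 genes, 25% had at least as many as Sox11, 36.9% as many as Six3, 56.4% as many as Otx2 and 5.37% as many as Sox1. The motif TATAAA, searched on both strands, was in the windows of Otx2 (most upstream start only) and Fgf5 and in 14.2% of all genes' windows. The octamer ATGCAAAT, the sequence read by POU factors, was in that of Sox1 and in 1.77% of all, and the E-box CACGTG was in 0 of the 7 and in 7.24% of all. A match describes the letters only. Across the 8939 genes with a window and a signal on both arrays, the median log2 ratio was -0.06 below 10 CG, 0.02 from 10 to 19 CG and 0.01 at 20 CG or more, all centred on the median gene.

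Values are signals made with MAS5, an Affymetrix method that turns the probes of a probe set into 1 number on a linear scale. Each array was given a floor, the median signal of its non-control probe sets, which was 60.9 for the control and 74.2 for the KO. Genes under the floor of 1 array have a bound in place of a ratio, and genes under both floors have no ratio. The KO array was brighter for most genes, and its median gene was 1.34-fold higher (0.43 on the log2 scale). Each log2 ratio, KO over control, is therefore given both as deposited and after centring, that is, less this shift. With 1 array per group there is no replicate and no test, and the only error that can be given is the spread between probe sets of 1 gene, a pooled SD of 0.24 on the log2 scale over 4704 genes. Dnmt1, the check of the labels, went from 1949.1 on the control to 262.1 on the KO array at its brightest probe set, and its other probe sets were below the floor on the KO array. The labels do not say which exons of Dnmt1 were deleted. All 12 ES cell markers listed were above both floors, among them Pou5f1 (2689.7 and 3297.0) and Sox2 (5436.6 and 6962.0).

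Sox11, Nes, Pax6 and Six3 were dimmer on the KO array even though most genes were brighter there, while Pou3f1 and Sox3 were brighter on it by more than the median gene. Of the 10 genes, 6 were above both floors, Six3 and Zic2 were above 1 of them, and Fgf5 and Sox1 above neither. After centring, 5 of the 8 measured genes were below the median gene and 2 above it, while the bound of Zic2 does not place it on either side. Of all 12226 measured genes, 49.3% were below and 49.2% above, bounds of that kind not counted. A gene above the control floor alone, such as Six3, is always counted below, because the floors differ by less than the shift. The same holds for the counts below the shift in the lists further on. As deposited, 4 of the 8 genes were lower and 4 higher on the KO array, where 9.5% of all measured genes were lower and 87.9% higher. None of the 8 reached 2-fold in either direction under either scaling. Over all genes, the share at least 2-fold higher was 1.09% and at least 2-fold lower 0.532% after centring, against 4.92% and 0.0982% as deposited. The 8 genes' median log2 ratio was -0.39 after centring and 0.032 on the deposited scale, beside -0.0049 and 0.42 for all measured genes. Because the list was chosen with earlier results known, the values for all genes give a scale and not a test.

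**Figure D1:**
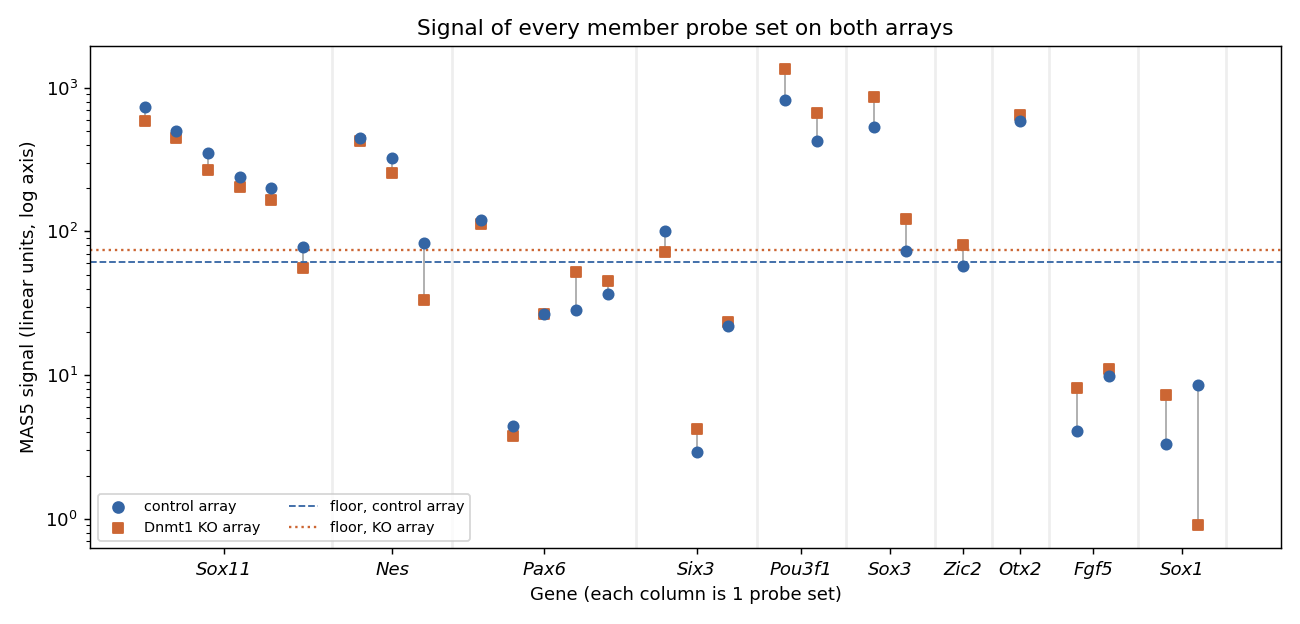
Signal of each of the 27 probe sets (columns, grouped by gene) on the control array (circles) and the Dnmt1 KO array (squares), in linear MAS5 units on a log axis, with each array's floor as a line. The 6 Sox11 probe sets and the 3 of Nes sit lower on the KO array, those of Pou3f1 and Sox3 sit higher, and all probe sets of Fgf5 and Sox1 lie under both floors.

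Among the neural genes, Sox11 was measured by the largest number of probe sets. Sox11 is a transcription factor of the SoxC group, abundant in neural progenitors and immature neurons. Its probe sets gave signals of 737.6, 497.5, 352.1, 239.2, 201.1 and 78.2 on the control and 589.0, 448.2, 266.8, 202.3, 166.6 and 56.0, in the same order, on the KO array. All 6 were lower on the KO array. The log2 ratios of the 5 probe sets above both floors ran from -0.40 to -0.15 as deposited and from -0.83 to -0.58 after centring, averaging -0.70 ± 0.09 (SD over 5 probe sets). The brightest gave -0.32 as deposited and -0.75 after centring, or 1.68-fold lower than the median gene. Of all genes above both floors, 1.67% had a lower ratio than that probe set, as did 0.518% of the 2125 genes with a mean log2 signal within 0.5 of it.

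Nes encodes nestin, an intermediate filament protein of dividing neural progenitors. The signals of its probe sets were 448.8, 323.2 and 82.7 on the control and 425.4, 255.6 and 33.5 on the KO array. Each was lower on the KO array, though the brightest by only 1.06-fold as deposited. After centring, the pair above both floors gave log2 ratios of -0.50 and -0.76, averaging -0.63 ± 0.18 (SD over 2 probe sets), and the dimmest gave -0.58 or below.

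Pax6 encodes a paired-domain and homeodomain factor of the neuroectoderm and eye. A single probe set of its 5 was above the floor, at 120.8 on the control and 113.0 on the KO array. That is a log2 ratio of -0.10 as deposited and -0.52 after centring. The other 4 gave between 4.4 and 36.9 on the control and between 3.8 and 51.9 on the KO array, so they carry no ratio. The Pax6 value thus rests on 1 dim probe set, and 10.4% of the 2540 genes of like signal had a lower ratio.

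Six3, a homeobox gene of the anterior neural plate and eye field, was likewise read by 1 of its 3 probe sets. That probe set went from 99.9 on the control array to 72.2 on the KO array, just under the KO floor. Its log2 ratio was -0.43 or below as deposited and -0.85 or below after centring, the lowest of the list. The remaining probe sets were at 22.1 and 2.9 on the control and 23.4 and 4.2 on the KO array.

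Sox1, a SoxB1 factor and one of the earliest markers of committed neuroectoderm, was below the floor throughout. Its probe sets gave 3.3 and 8.6 on the control and 7.3 and 0.9 on the KO array, in opposite directions, and no ratio can be read from them. Sox1 lies on chromosome 8, whose 601 genes above both floors had a median of -0.37 after centring and 0.056 as deposited. The chromosomes of the other 9 genes had medians between -0.08 (X, with Sox3) and 0.03 (17, with Six3), small beside the ratios of Sox11 and Six3.

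**Figure D2:**
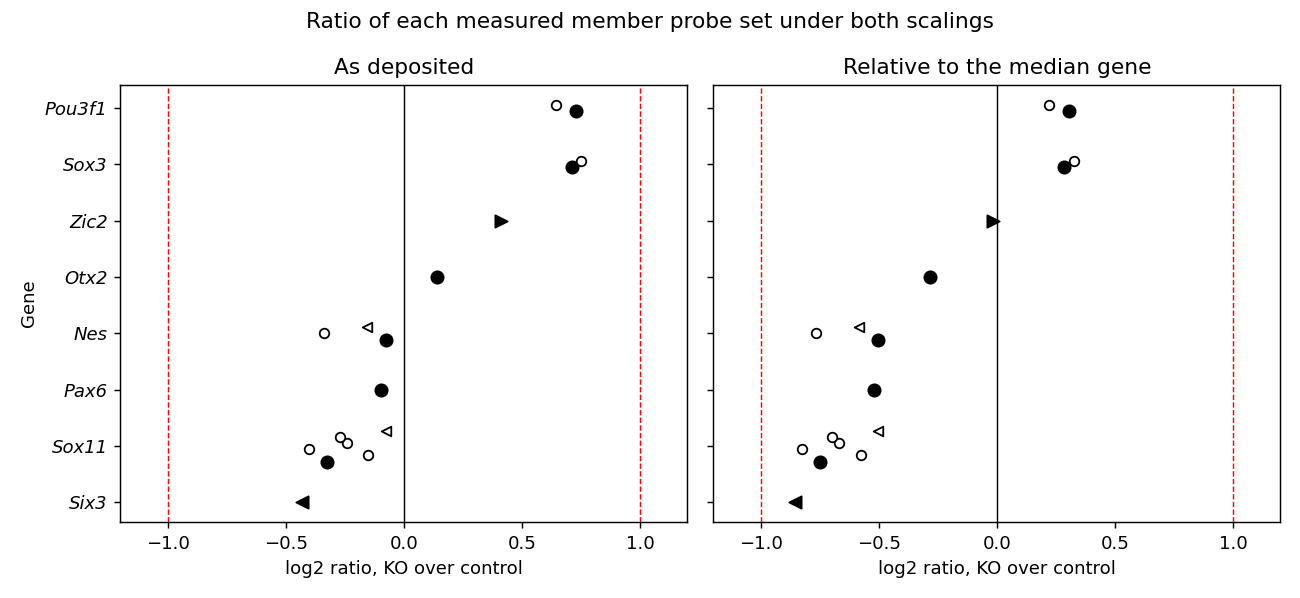
Log2 ratio, KO over control, of the 17 probe sets above at least 1 floor, as deposited (left) and relative to the median gene (right), by gene. The filled symbol is the brightest probe set, triangles are bounds that point the way the true ratio lies, and dashed lines mark 2-fold. All 11 symbols of Sox11, Nes, Pax6 and Six3 lie below 0 in both panels, and the 4 of Pou3f1 and Sox3 lie above 0 in both. The bounds among the 11 were above the control floor alone, which places any such probe set below 0 in the right panel. Probe sets under both floors are not drawn.

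At the brightest probe set, the 4 measured epiblast genes all had a higher ratio than the 4 measured neural genes. Otx2, however, was only 0.22 above Nes and 0.24 above Pax6, no more than the SD between probe sets. With the mean over probe sets, those under the floor included, Pax6 (-0.18) was above Otx2 (-0.24). Outside the members, the medians of the wider lists given further on lay the other way. They were -0.066 for epiblast genes and 0.11 for neural genes after centring. Pou3f1, also called Oct6, is a POU factor of the primed epiblast and of early neural cells. Its probe sets went from 817.6 to 1355.2 and from 427.0 to 667.3, both higher on the KO array. The log2 ratios were 0.73 and 0.64 as deposited, and 0.30 and 0.22 after centring. As deposited the brightest was 1.66-fold higher, and as many as 28% of all measured genes were at least 1.5-fold higher on that scale.

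Sox3 is a SoxB1 factor of the epiblast and neural plate, encoded on the X chromosome. Its signals went from 530.2 to 868.1 and from 72.8 to 122.5, again higher on the KO array at both probe sets. Their log2 ratios were 0.71 and 0.75 as deposited, averaging 0.31 ± 0.03 (SD over 2 probe sets) after centring. Of all genes above both floors, 83.5% had a lower ratio than Sox3 and 84.6% a lower ratio than Pou3f1, so both lay inside the bulk of the distribution.

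Otx2, a homeobox factor that drives the exit from naive pluripotency and later patterns the anterior brain, has 1 probe set. Its signal was 583.2 on the control and 643.2 on the KO array. The log2 ratio was 0.14 as deposited and -0.28 after centring, so the direction depended on the scaling. Of all genes above both floors, 16.9% had a lower ratio than Otx2, and its distance from the median gene was close to the SD between probe sets.

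Zic2, a zinc finger factor of the epiblast and neural plate, had signals of 57.6 and 80.9 at its only probe set. Its log2 ratio was 0.41 or above as deposited and -0.02 or above after centring, and both signals lay close to the floor of their array. Fgf5, a secreted growth factor that is the classical marker of the post-implantation epiblast, gave 4.1 and 9.8 on the control and 8.1 and 11 on the KO array. Both of its probe sets were far below the floor on both arrays, and no ratio is given.

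**Figure D3:**
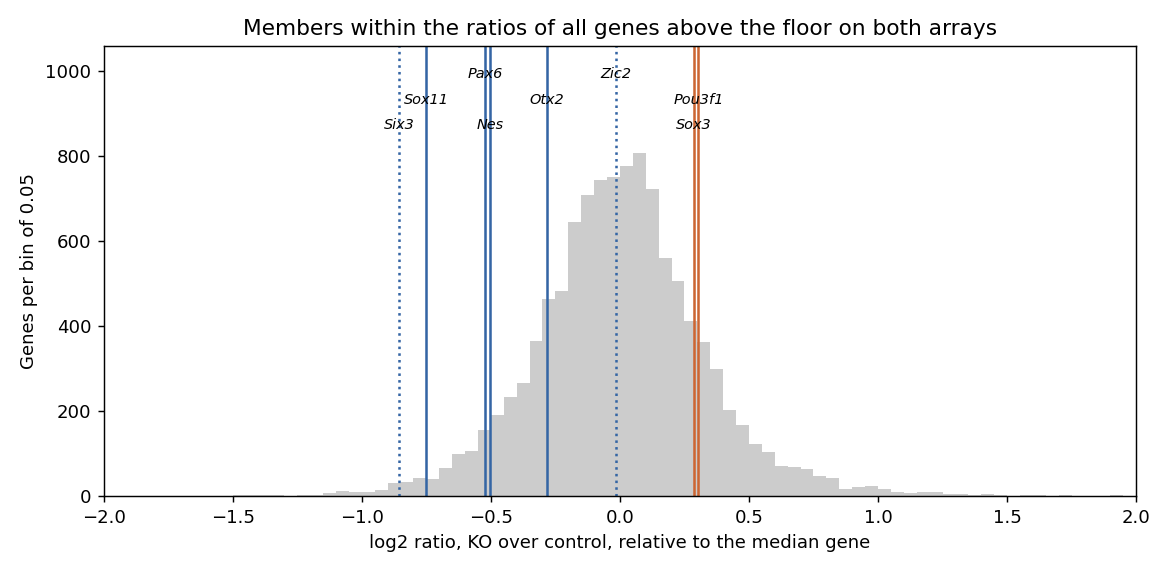
Log2 ratios, KO over control and centred on the median gene, of the 10995 genes above both floors (grey bars, genes per bin), with the 8 measured genes as lines, dotted for a bound. Sox11 and Six3 lie in the lower tail, Pax6, Nes and Otx2 on the lower slope, and Sox3 and Pou3f1 on the upper slope of the distribution.

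Ordered by ratio after centring, the genes ran from Six3 and Sox11 through Pax6, Nes, Otx2 and Zic2 to Sox3 and Pou3f1. No neighbours in this order differed by more than 0.30 after centring, which is under the 0.34 that the SD between probe sets gives for a difference of 2 ratios. Among the 6 genes above both floors, 9 of 15 pairs differed by more than 0.34. The same share was not computed for pairs of all genes, so the count does not set these genes apart. Sox11 and Sox3 were 1.04 apart and Otx2 and Sox3 0.57 apart, differences that multiplying a whole array by a constant cannot alter. This spread is technical and says nothing of how cultures vary. At a threshold of 1.5-fold after centring, 2 of the 8 genes, Sox11 and Six3, were lower and 0 higher, where 4.25% of all measured genes were lower and 4.74% higher. As deposited, 2 of the 8 genes, Pou3f1 and Sox3, were at least 1.5-fold higher and 0 were lower, where 28% of all measured genes were higher and 0.474% lower.

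Wider lists showed how far the values extended to related genes. A list of 15 formative and primed epiblast genes, 5 of them members, had 13 measured, with 0 at least 2-fold higher and 0 lower, and a median, set by the bound of Zic2, of at least -0.016 after centring and at least 0.41 as deposited. Its 9 measured genes outside the members had 5 below the shift and 4 above, with a median of -0.066 after centring. Fgf15, a growth factor of the early neural tube, went from 125.8 to 115.9 and was the only one of the 9 that was dimmer on the KO array. Its log2 ratio was -0.54 after centring, the scale of the bracketed log2 ratios from here on. Grhl2, an epithelial transcription factor, went from 786.9 to 1309.8 (0.31), and Lef1, a nuclear effector of Wnt signalling, from 129.5 to 211.1 (0.28). The de novo methyltransferase gene Dnmt3b, which is high in the epiblast, went from 3743.7 to 4350.5 (-0.21 after centring, 0.22 as deposited).

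The neural progenitor and neural plate list held 35 genes, of which 33 had a probe set and 16 were below the floor on both arrays. Besides Sox1, these included Sox9, Lhx2, Emx2, Fabp7, Hes5, Neurog2 and Olig2. Among the 17 measured genes, none reached 2-fold in either direction after centring, and 1 was 2-fold higher as deposited. Leaving out Sox11, Nes, Pax6 and Six3, 13 measured genes remained, with 6 below the shift and 7 above, 0 lower as deposited, and a median of 0.11 after centring. At the brightest probe set, the low values of the 4 genes were therefore not seen across the other measured genes of the list. Sox4, which is on this list, came closer to the 4 genes over its probe sets. Its 6 probe sets above both floors averaged -0.54 after centring, against -0.30 at the brightest. As deposited, 4 of those 6 were lower on the KO array and 2 higher. Sox21, a SoxB2 factor, went from 114.2 to 229.5, a log2 ratio of 0.58 after centring and 1.01 as deposited. The RNA-binding protein gene Msi1 went from 204.8 to 357.6 (0.38), the Notch ligand gene Dll1 from 139.1 to 239.3 (0.36), and Hesx1, a homeobox gene of the anterior neural plate, from 76.8 to 79.6 (-0.37).

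Paralogs of the members were likewise found above and below the median gene. Of 22 measured, 13 were below the shift and 8 above, and the bound of Pax5 (40.1 to 74.5) gives no side. After centring, 1 was at least 2-fold higher and 0 lower, and 3 were higher as deposited. The 1 past 2-fold was Nefm, the medium neurofilament subunit and a relative of nestin, which went from 252.8 to 1053.9 on its single probe set, a log2 ratio of 1.63 after centring and 2.06 as deposited. Nestin's other relatives differed among themselves. Des, the muscle intermediate filament desmin, had at least 0.61 (23.5 to 125.0), and Gfap, the glial filament, -0.84 or below (98.9 to 55.2). Pax9, a relative of Pax6, had -0.76 or below (93.5 to 30.3).

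Further paralogs are named after their values were seen. Vim, which assembles with nestin, was above the shift at all 3 probe sets (1016.1 to 1986.0 at the brightest), averaging 0.52 ± 0.04 (SD over 3 probe sets). The light neurofilament gene Nefl was below the shift at both probe sets, at -0.56 and -0.33. Sox4, a SoxC relative of Sox11, was below the shift at 6 of the 6 probe sets above both floors, with log2 ratios from -0.89 to -0.30 averaging -0.54 ± 0.21 (SD over 6 probe sets). As deposited, however, 4 of those 6 were lower and 2 higher on the KO array, including the brightest (2680.4 to 2929.0). Sox2, the SoxB1 factor shared by ES cells and neural progenitors, was at -0.07 after centring. Fgf4, an ES cell relative of Fgf5, was lower on the KO array at 3 of 3 probe sets above both floors, averaging -0.59 ± 0.10 (SD over 3 probe sets) after centring.

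**Figure D4:**
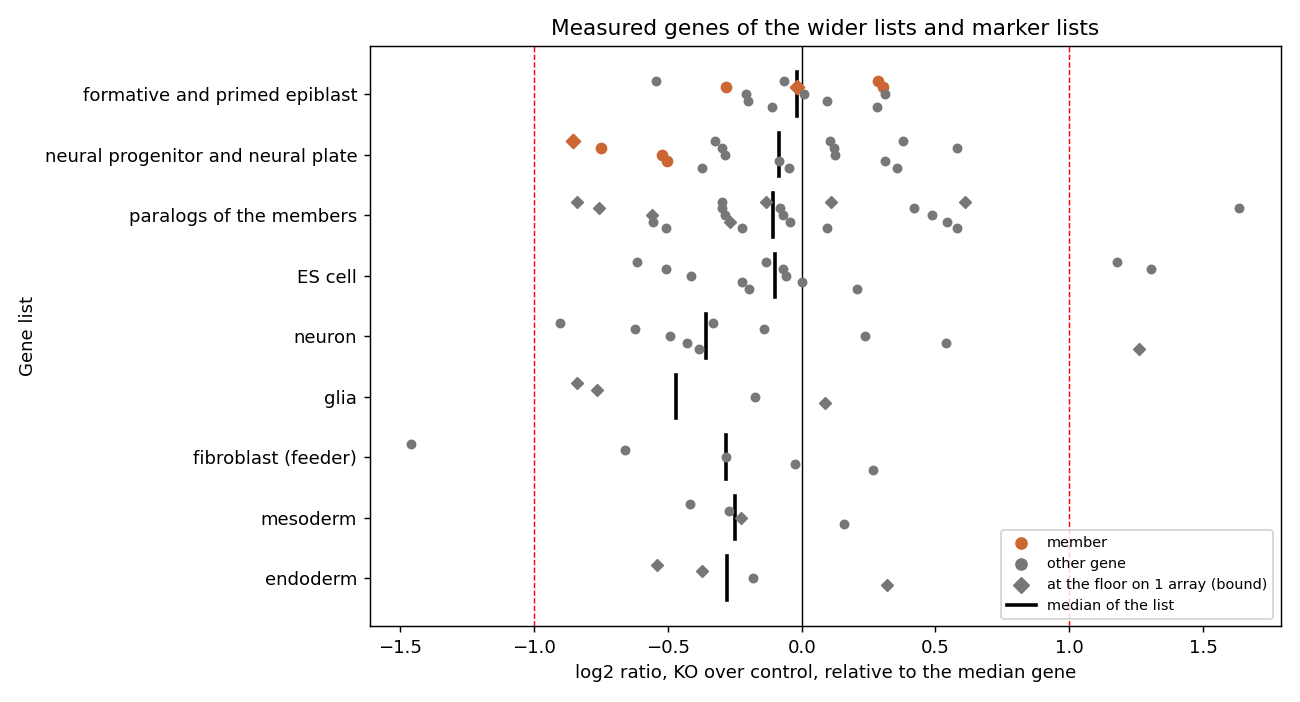
Log2 ratio, KO over control and centred on the median gene, of each measured gene in the wider lists and the marker lists, with members in orange, other genes in grey, diamonds for genes at the floor on 1 array and a black bar at each list's median. Dashed lines mark 2-fold. The 4 members of the neural progenitor list are its lowest points, and Nefm at 1.63 is the highest point among the paralogs.

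Markers of other cell types were read on the same arrays. Of 11 neuron markers, 10 were measured, 7 were below the shift and 3 above, with a median of -0.36 after centring and 0.069 as deposited, while Dcx was below the floor on both arrays. The summed signal of the 11 neuron markers was 3685.7 on the control and 4449.3 on the KO array. Summed signals, here and below, also take in the genes under both floors. Gap43, a growth cone protein, went from 248.1 to 178.0 (-0.90), and Tubb3, the neuronal tubulin, from 415.8 to 397.0 (-0.49). In the other direction, Neurod1 went from 322.4 to 629.7 (0.54), and Elavl4 had a log2 ratio of 0.24 after centring. Ncam1, a neural adhesion molecule, had a log2 ratio of at least 1.26 after centring at 1 of its 7 probe sets (54.8 to 196.1) but of -0.03 at another. Glial markers were measured for 4 of 6 genes (summed signal 376.0 and 325.0), with 3 below the shift. Gfap, Slc1a3 and Olig1 were under the floor of 1 array, so their values are bounds. The median was at most -0.47 after centring and at most -0.044 as deposited. Aqp4 and S100b were below the floor on both arrays.

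Fibroblast markers, which feeder cells would carry, were measured for 5 of 11 genes, with summed signals of 2000.9 and 2070.7. Of these, 4 were below the shift, the median was -0.28 after centring and 0.14 as deposited, and Tagln was 2.75-fold lower after centring and 2.05-fold lower as deposited (707.9 to 345.9). Col3a1, Pdgfra, Pdgfrb, Postn, Dcn and Lum were below the floor on both arrays. Col1a1 (94.3 to 80.2), Col1a2 (172.9 to 190.9), Thy1 (340.0 to 549.8) and Acta2 (527.0 to 695.1) were above both floors. Mesoderm markers had 3 of 4 measured genes below the shift and summed signals of 504.7 and 552.5. Their median, which rests in part on the bound of Mesp1, was at most -0.25 after centring and at most 0.18 as deposited. Endoderm markers also had 3 of 4 below. Their summed signal went from 301.4 to 439.4, which includes Afp (1.3 to 48.8) and Cxcr4 (38.9 to 73.7), both under both floors. The endoderm median, which rests in part on the bound of Gata6, was at most -0.28 after centring and at most 0.15 as deposited. Mesp1, Gata4 and Gata6, like the glial genes Gfap and Slc1a3, were above the control floor alone. They therefore fall below the shift by construction. After centring, the medians of these 5 lists were below the median gene like Sox11, Nes, Pax6 and Six3. As deposited, only the glial median was placed below 0, and the bound on the endoderm median does not give its side. Their part in the values of the 4 genes was not tested. Among ES cell markers, Nanog (592.5 to 1965.5) was 2.47-fold and Esrrb (361.8 to 1098.1) 2.26-fold higher after centring at the brightest probe set, though the 3 probe sets of Esrrb averaged 0.84 ± 0.40 (SD) on the log2 scale, and 8 of the 12 were below the shift, with a median of -0.10.

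**Figure D5:**
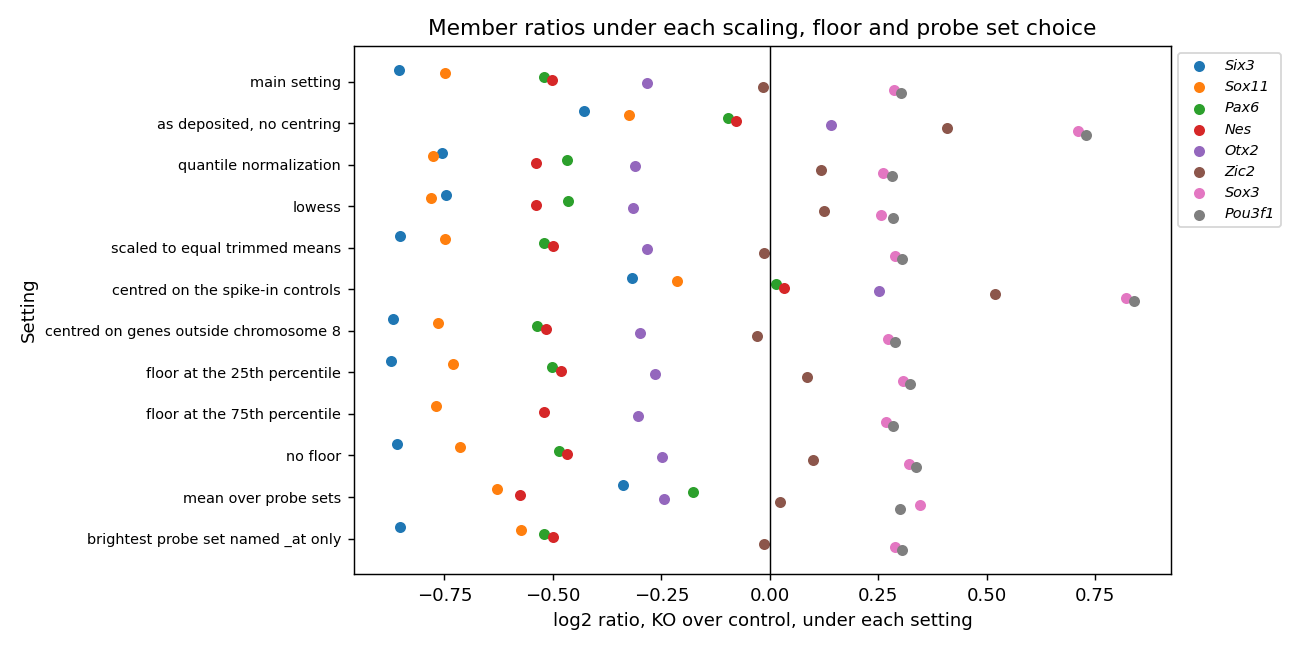
Log2 ratio, KO over control, of each measured gene (colours) in the main setting and under the 11 alternative scalings, floors and probe set choices (rows). Sox11 and Six3 stay below 0 and Sox3 and Pou3f1 above 0 wherever they were measured, whereas the values of Otx2 and of Zic2, a lower bound in the main setting, fall on both sides of 0, and Nes and Pax6 do so with centring on the spike-in controls.

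The sign of several genes depended on the scaling, as the plot of settings shows. Affymetrix spike-in controls, bacterial and phage transcripts added to each sample before hybridisation, did not share the brightness of the KO array, since 18 probe sets for them had a median of -0.11 on the log2 scale, from -0.54 to 0.05. Centred on these controls, Sox11 was at -0.21 and Six3 at -0.32 or below, while Nes was at 0.034, Pax6 at 0.015 and Otx2 at 0.25. Pou3f1 and Sox3 were at 0.84 and 0.82 on that scale.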

How the data were processed

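Signal intensities were deposited as 1 linear value per probe set and array, made with MAS5 per the submitters' processing notes (target level and present or absent calls: not given in the sources used here). Groups came from sample titles. The number of arrays limits the precision. Means after trimming 2% at each end were 184.0 and 246.8 on the control and KO arrays. The 64 control probe sets were left out, except as spike-ins. Of the rest, 34945 had 1 gene symbol in the platform annotation, and 34741 of these were matched by gene identifier to RefSeq (GRCm38.p6).

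Signals were raised to a floor, the 50th percentile of each array, and log2 transformed. Per gene, the probe set with the highest mean floored log2 signal was used. Ratios were centred on the median of the 10995 genes above both floors. Genes were counted at 2-fold, with no test. Genes named were all members, Dnmt1, list genes at least 2-fold different, and up to 4 further non-member genes per list with the largest ratios; marker genes and others are given as examples or marked as picked with values known. The members and lists were chosen with earlier results of these data known. Alternatives covered scaling, floor, probe set choice and fold. The procedure was tested on simulated data. Python 3.11.15, pandas 2.3.3 and statsmodels 0.14.6 were used.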

Additional observations from a re-analysis of the deposited data

How the results depend on the processing

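The median log2 ratio of the measured genes was -0.39 in the main setting, 0.032 as deposited and 0.14 when centred on the spike-in controls, so its sign depended on the scaling. Under the other 9 alternatives it ran from -0.50 to -0.21. The number below 0, leaving out a bound that crosses it, was 5 in the main setting, 4 as deposited, 2 with the spike-in controls and 3 with the floor at the 75th percentile, where 5 genes were measured, and it was between 4 and 6 otherwise. Counts at 2-fold stayed at 0 higher and 0 lower for the members in every alternative to the scaling, floor and probe set. With a threshold of 1.5-fold, 2 members were lower, as were 2 neural progenitor genes (both members), and 2 paralogs were higher and 2 lower. As deposited, 1 neural progenitor gene and 3 paralogs were at least 2-fold higher, against 0 and 1 relative to the shift. Of 84 single-gene values under the alternatives, 66 moved by less than the SD between probe sets and 18 by more. Sox11 ran from -0.78 to -0.21, Six3 from -0.87 to -0.32, Nes from -0.58 to 0.034, Pax6 from -0.54 to 0.015, Otx2 from -0.32 to 0.25, Zic2 (a lower bound where its control signal is at the floor) from -0.03 to 0.52, Sox3 from 0.26 to 0.82 and Pou3f1 from 0.28 to 0.84. Without a floor, Fgf5 and Sox1 enter the median (-0.24) and the count below 0 (6) with signals of at most 11. Over all genes, the counts at least 2-fold higher and lower were 133 and 65 in the main setting, 602 and 12 as deposited, 929 and 1118 with no floor, 361 and 388 with the floor at the 25th percentile, 48 and 12 with it at the 75th, 924 and 6 with the spike-in controls, and 104 and 25 with the mean over probe sets. No paired analysis was possible because each group has 1 array.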
